A study of Glycine max with 4 samples.

Results

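On 19 of the 20 soybean chromosomes, GmWRI1 occupied few places in the middle. Among places with a peak in both replicates, those in the middle were on the whole about as strongly bound as those toward the chromosome ends. Places bound too weakly to give a peak in both replicates could not enter this comparison. The regions described here are the 588 that lay between 40% and 60% of the length over which peaks were found, on 19 of the 20 chromosomes. They were chosen by position alone. Peaks of both biological replicates were merged where they shared at least 1 bp, and a region was kept when it held a peak of each replicate, which gave 15181 regions in all. On each chromosome the span ran from the first start to the last end of any peak, chromosome 13 was left out, and a region was placed by its midpoint. The stretch from 40% to 60% is called the middle zone. The 588 regions made up 3.87% of the 15181 and 4.20% of the 13999 on the 19 chromosomes, and they were compared with 10141 regions in the outer zones of the same chromosomes (below 20% or above 80% of the span).

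The chromatin came from embryos of untreated greenhouse-grown soybean (cultivar Williams 82) in early maturation, called the em stage. There were 2 ChIP libraries made with an antibody against a GmWRI1 peptide, which per the study's methods recognizes both GmWRI1 proteins, and 2 input libraries of total chromatin that entered only through the peak calling. No genotype, treatment or stage was contrasted, and whole embryos were used, so that occupancy in fewer cells and weaker occupancy per cell cannot be told apart. At the summit of a peak, the median number of reads was 37 in replicate 1 (22982 peaks) and 26 in replicate 2 (20027 peaks).

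WRINKLED1 is an AP2-type transcription factor that, in Arabidopsis seeds, turns on genes of glycolysis and of fatty acid synthesis in the plastid. Soybean chromosomes have long middle stretches around the centromere that are rich in repeats and heterochromatin, hold few genes and recombine little, whereas most genes lie in the arms toward the ends. The middle zone used here is a stretch defined by length and was not matched to a measured centromere. Reads from repeats are hard to place on a genome, and the part this may have in the numbers below was not tested.

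The first question was how regions were spread along the chromosomes. The middle zones held 3.26 regions per Mb of span, against 28.1 per Mb in the outer zones, so that the outer zones were 8.62 times denser. The middle was the sparser on 19 of 19 chromosomes. Chromosome 13, which the rule left out, went the other way, with 27.7 regions per Mb in its middle zone and 22.1 in its outer zones. Over the 19 chromosomes, the density of the middle ran from 1.43 regions per Mb on chromosome 4 (15 regions) to 6.18 on chromosome 8 (59 regions). The outer zones of the 19 ran from 21.1 to 36.5, so that none of these middle zones reached the density of any pair of outer zones. The contrast was widest on chromosome 4, at 22.9 times, and narrowest on chromosome 8, at 5.25 times. The peak lists taken alone gave middle-to-outer density ratios of 0.114 (replicate 1) and 0.1204 (replicate 2), close to the ratio of 0.116 for shared regions.

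Density fell from both ends toward the center. In bins of 5% of the span, 1682 regions lay in the first bin and 1677 in the last, and the sparsest bin, from 50% to 55%, held 103, or 2.28 per Mb. With the span cut into 5 equal parts, the middle zone was the sparsest on 8 chromosomes, whereas the part from 20% to 40% was sparsest on 4 and that from 60% to 80% on 7. The low point of many chromosomes therefore lay to one side of the midpoint. When the sparsest of the 5 parts of each chromosome was used in place of the middle one, a choice made after the values were seen, 441 regions remained and the outer zones were 11.5 times denser. Because these parts were picked for holding few regions, this contrast could not come out smaller than that of the middle zone.

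**Figure D1:**
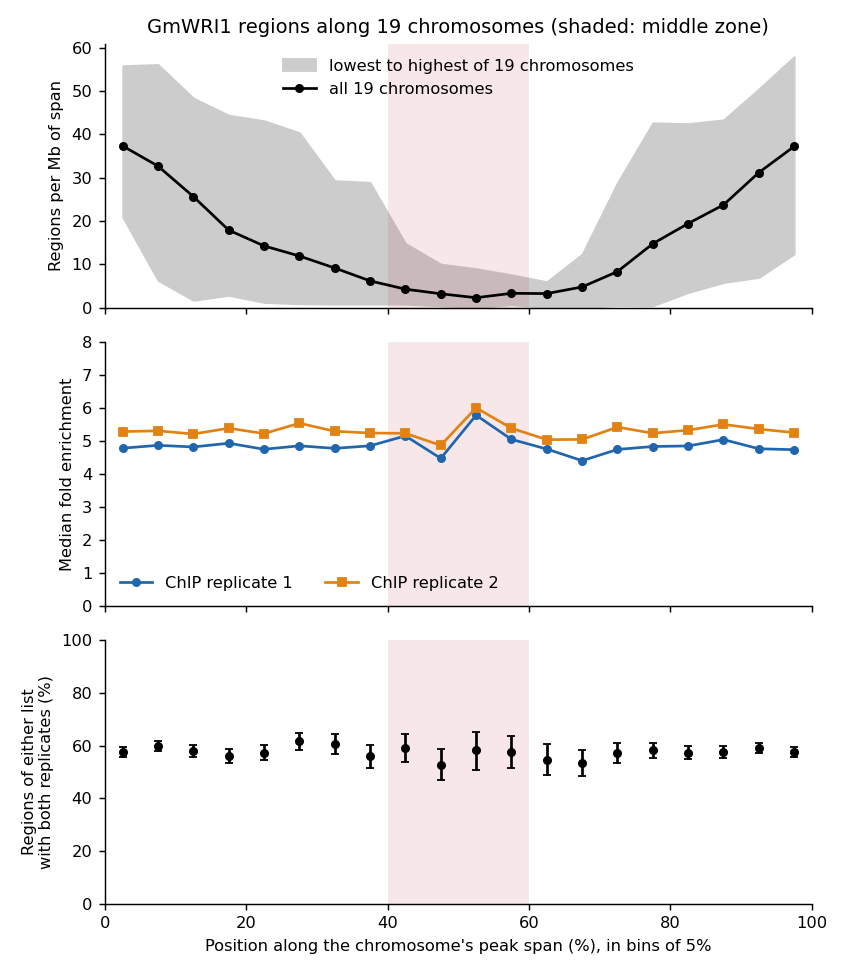
Regions per Mb (top; line, 19 chromosomes together; gray, lowest to highest chromosome), median fold enrichment in each ChIP replicate (middle) and percent of regions of either list that held a peak of both replicates (bottom; bars, 95% Wilson intervals), in bins of 5% of the peak span, with the middle zone shaded. Density drops to 2.28 regions per Mb at 50% to 55%, while the bin medians of fold enrichment (averaged over replicates) stay between 4.59 and 5.82 and sharing stays between 52.7% and 61.7%. The lowest median and the lowest sharing lie at 45% to 50% (144 regions). The highest median lies at 50% to 55% (103 regions), so both extremes of fold enrichment fall in sparse bins of the middle zone.

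At the median, regions of the chromosome middle lay farther from one another than those of the outer zones. The median distance to the nearest other region was 35.7 kb, against 7.48 kb in the outer zones. The lower quartiles were close, at 2.28 and 1.88 kb, whereas the upper quartiles were 141 and 18.7 kb. Another region lay within 10 kb of 209 of the 588 (35.5%; 95% Wilson interval, 31.8% to 39.5%), compared with 5814 of 10141 (57.3%). The share to be expected from the density of each zone was not computed, so clustering within a zone was not tested. Joined by gaps of at most 10 kb, the 588 regions formed 379 single regions, 71 pairs, 21 groups of 3 and 1 group of 4. The group of 4 lay on chromosome 7 from 18558657 to 18571722 and its members ranged from 5.45-fold to 28.4-fold enrichment. The longest stretch of the middle zone without any region was 3.17 Mb, on chromosome 8, which also held the most regions, so its regions were confined to the rest of that zone. The shortest such maximum was 0.808 Mb, on chromosome 12. All coordinates are 1-based positions on the build Wm82.a2.v1.

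The next question was whether regions in the chromosome middle were weaker. All regions compared had passed the peak threshold in both replicates, so places bound too weakly for that are missing from both zones. Whether the middle held more such places cannot be seen from the values below. Strength is the fold enrichment of ChIP reads over local background at the strongest summit of each replicate. Across the 588 regions, it ran in replicate 1 from 2.14 through a median of 4.98 to 43.3, and in replicate 2 from 2.41 through a median of 5.22 to 60.1. In the outer zones, the medians were 4.83 and 5.33. The ranges of the zones overlapped over almost their whole length, and the middle-to-outer ratio of the medians was 1.03 in replicate 1 and 0.980 in replicate 2, so that the replicates lay on opposite sides of equality. For the mean of both replicates, the medians were 5.13 and 5.04, the lower quartiles 3.98 and 4.02, the upper quartiles 7.72 and 7.53, and the 90th percentile was 13.4 in both zones. With 2 paired libraries, an exact sign-flip permutation test over replicates cannot give a two-sided p below 0.5, and regions are not replicates, so no p is given for these contrasts.

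Single chromosomes did not share a direction. The median fold enrichment was higher in the middle zone on 11 of 19 chromosomes in replicate 1 and on 9 in replicate 2, with 6 chromosomes higher in both replicates and 5 lower in both. The medians of the middle zones spread more widely (4.28 on chromosome 19 to 6.55 on chromosome 5, mean of replicates) than those of the outer zones (4.69 to 5.29), and rest on 14 to 59 regions rather than 396 to 687. The single strongest region of each chromosome was lower in the middle zone on 19 of 19 chromosomes (12.3 to 51.6, against 40.6 to 62.7), but the highest of a few values tends to lie below the highest of many, and this was not adjusted for.

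**Figure D2:**
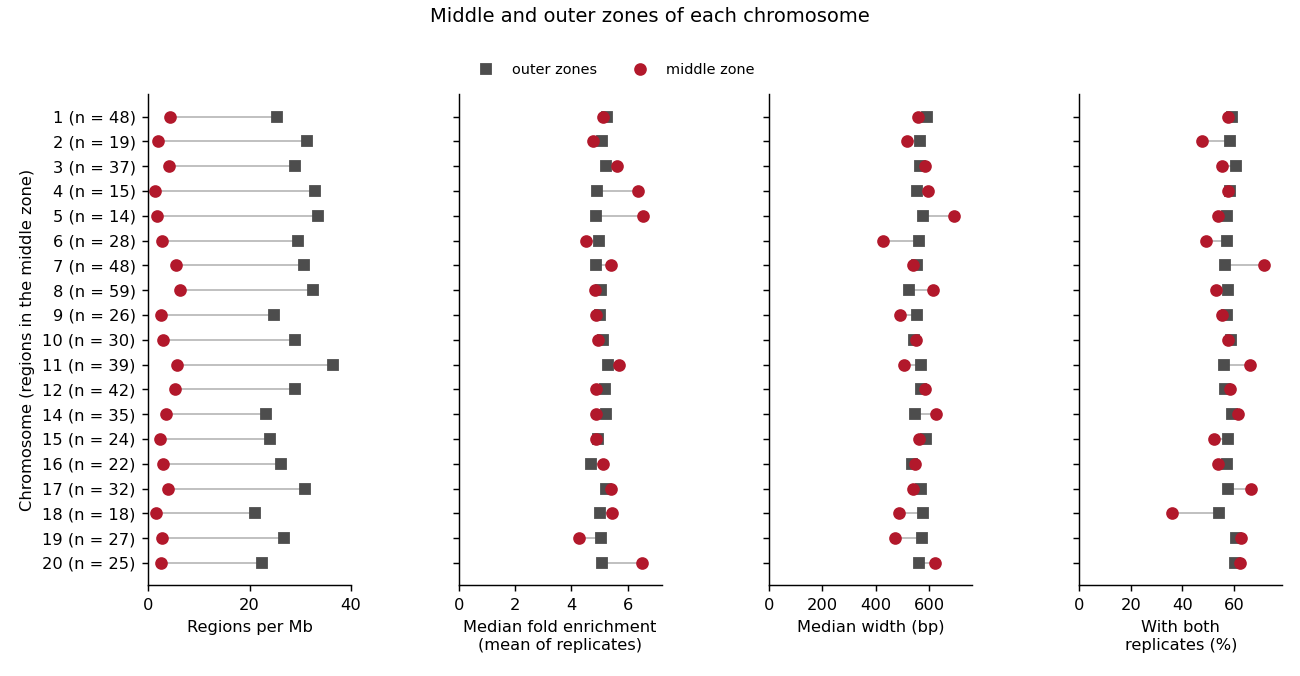
Density (regions per Mb), median fold enrichment (mean of both replicates), median width (bp) and percent of regions of either list with both replicates, on each of 19 chromosomes, for the middle zone (red circles) and the outer zones (gray squares); lines join the zones of a chromosome. Density is lower in the middle on all 19 chromosomes, whereas fold enrichment is higher in the middle on 9 and lower on 10.

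Strongly bound regions occurred in the middle at about the share seen elsewhere. A fold enrichment of at least 5 in both replicates was reached by 254 of the 588 regions (43.2%), against 41.1% of all 15181 regions and 41.4% in the outer zones. At least 10-fold enrichment in both replicates was reached by 91 (15.5%; 95% Wilson interval, 12.8% to 18.6%), against 13.2% of all regions and 13.4% in the outer zones. The difference from the outer zones was 2.12 percentage points, with a 95% Newcombe interval of -0.657 to 5.34 that includes 0. This difference fell to 1.20 points without chromosome 1 and to 1.22 without chromosome 3, which held 13 and 11 of the 91 regions, whereas chromosomes 6 and 12 held 1 each. It was -0.356 points when the middle was taken as 30% to 70% of the span. At least 20-fold was reached by 24 (4.08%, against 4.27% of all regions) and at least 30-fold by 7 (1.19%, against 1.77%). These intervals cover counting error only.

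**Figure D3:**
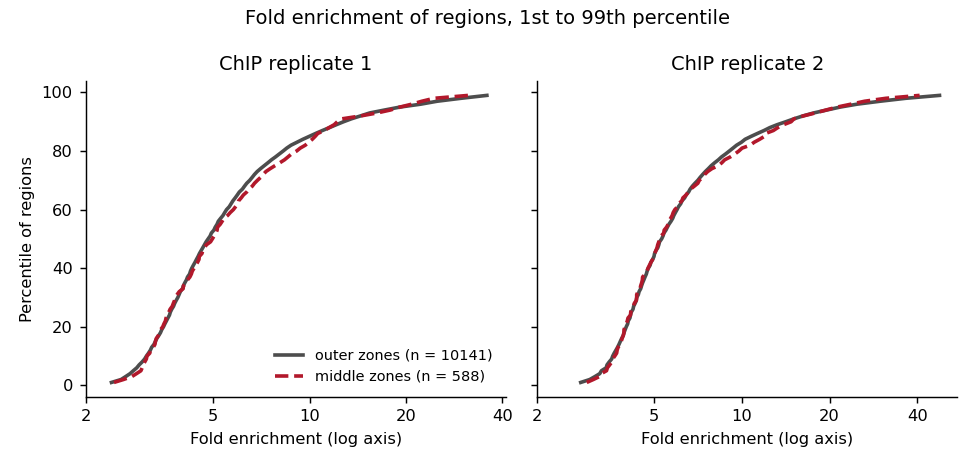
Percentiles of fold enrichment (log axis) in ChIP replicate 1 (left) and replicate 2 (right) for the 588 regions of the middle zones (dashed red) and the 10141 regions of the outer zones (gray). The curves nearly coincide, with medians of 4.98 and 4.83 in replicate 1 and 5.22 and 5.33 in replicate 2.

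Fold enrichment is a ratio, so its parts were also read. The median number of reads at the summit was 46 in both zones in replicate 1, and 28 in the middle against 29 in the outer zones in replicate 2. The local background was slightly lower in the middle in both replicates, with medians of 8.12 against 8.37 reads in replicate 1 (ratio 0.970) and 4.27 against 4.49 in replicate 2 (ratio 0.951). The lowest background that occurred was the same in both zones at the printed precision, 7.17 in replicate 1 and 3.80 in replicate 2.

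Replicates tracked each other about as closely in the middle as in the outer zones. Spearman's rho between the replicates' fold enrichments was 0.798 over the 588 regions and 0.782 over the outer regions, as a description across regions of the same 2 libraries. Replicate 2 had the higher value at 405 of the 588 regions (68.9%), compared with 68.2% in the outer zones. The median gap between the summits of both replicates was 41 bp in the middle and 40 bp in the outer zones, and 78.1% and 75.6% lay within 100 bp.

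Sharing between replicates was examined over all regions found in either list, since the 588 regions are shared by definition. In the middle zones, 588 of 1032 regions of either list held a peak of both replicates (57.0%; 95% Wilson interval, 53.9% to 59.97%), against 58.0% in the outer zones and 58.1% over the whole series. The difference was -1.03 percentage points (95% Newcombe interval, -4.16 to 2.05). By chromosome, the share in the middle was higher on 7 and lower on 12, and ranged from 36.0% on chromosome 18 (18 of 50 regions) to 71.6% on chromosome 7 (48 of 67). Of the peaks of replicate 1, 68.6% in the middle and 68.2% in the outer zones lay in a shared region. Of the peaks of replicate 2, 79.0% and 81.7% did, a difference of -2.75 points (95% Newcombe interval, -5.77 to 0.00972).

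At like strength, sharing differed little between the zones. Each list was cut into 5 classes by −log10 q, a measure of how far a peak exceeds background. In the weakest class of replicate 1, 33.7% of peaks in the middle and 33.5% in the outer zones were shared, and in the strongest class 100% were shared in both zones. In replicate 2, the weakest class had 50.8% and 54.2%. Its strongest class had 157 of 159 peaks shared in the middle (98.7%) against 99.8% in the outer zones, and this was the only one of the 10 class comparisons whose 95% Newcombe interval left out 0 (-4.29 to -0.126 percentage points). Peaks without a partner were weak in both zones. In the middle, 275 regions had a peak only in replicate 1, with a median of 3.29-fold, and 169 only in replicate 2, with a median of 3.61-fold, and none of these exceeded 5.51-fold.

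Width differed between the zones mainly among the stronger regions. Over all regions, the median merged width was 549 bp in the middle and 562 bp in the outer zones (ratio 0.977), and the middle was narrower on 10 of 19 chromosomes. The ratio turned to 1.01 when shared summits had to lie within 100 bp. The parts from 20% to 40% and from 60% to 80% of the span had median widths of 535 and 529 bp, below that of the middle. A lower median width than in the outer zones was thus not particular to the middle. Width by class of strength was not computed for those parts. The wider part of the distribution differed more, with upper quartiles of 774 and 846 bp. In the weaker 3 of 5 classes of fold enrichment, the middle-to-outer ratios of median width were 0.998, 0.989 and 1.02. In the stronger 2 classes they were 0.857 and 0.881. Among the strongest 40% of regions (at least 5.69-fold, mean of replicates), 239 regions of the middle had a median width of 649 bp and 4074 outer regions 738 bp, although the median fold enrichment in this group was 9.49 in the middle and 8.54 in the outer zones. The strongest peak of each replicate showed the same direction, with 597 against 688 bp in replicate 1 and 557 against 617 bp in replicate 2. The middle was narrower on 13 of 19 chromosomes for merged regions, and on 12 for the peaks of each replicate. This grouping of the stronger classes was chosen after the values were seen. Regions of at least 2000 bp numbered 19 in the middle (3.23%; 95% Wilson interval, 2.08% to 4.99%), against 3.46% of all regions.

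**Figure D4:**
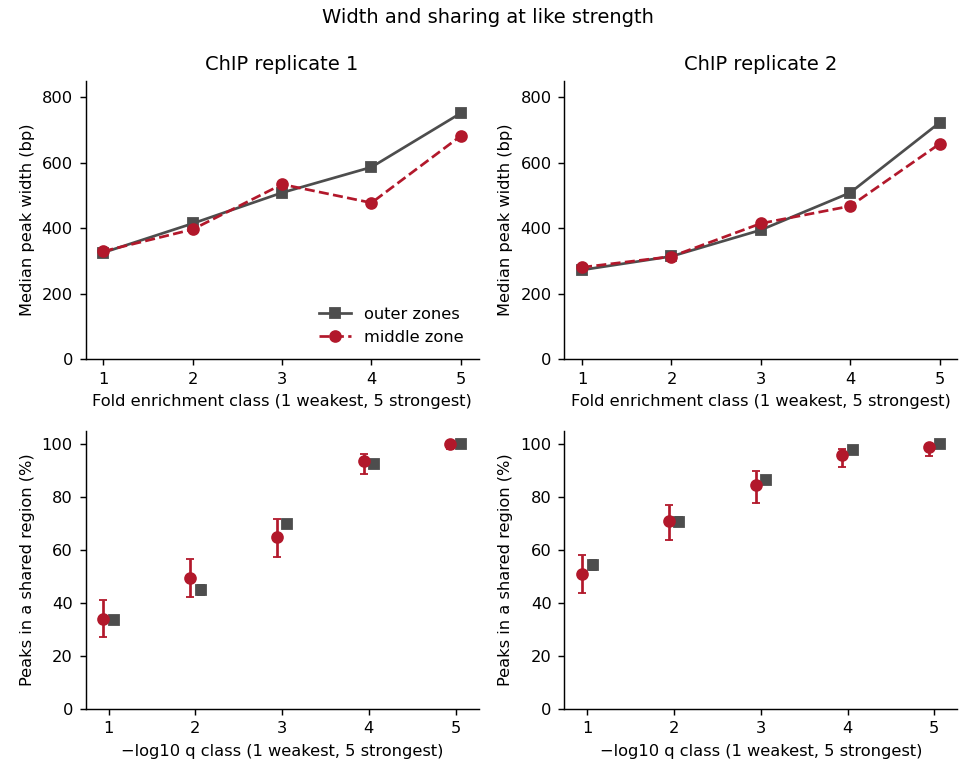
Top, median width (bp) of the strongest peak of each region by class of fold enrichment in that replicate; bottom, percent of peaks in a shared region by class of −log10 q, with 95% Wilson intervals (for the outer zones they are mostly hidden by the symbols). In classes 4 and 5 the middle zone (red) lies below the outer zones (gray) in width in both replicates, whereas sharing rises with class alike in both zones.

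The genes at these regions were read from positions of bound sites given with the study, which served only to tie a position to a gene. A gene could be placed at 130 of the 588 regions. The positions of FAT sites, direct targets and regions bound at the em stage were chosen by the study on the same samples. Others were regions bound in a separate ChIP-Seq experiment on embryos of the cotyledon (cot) stage, which per the study fell short of ENCODE quality criteria, and 43 of the 130 regions were tied to a gene through cot-stage positions alone. The positions at hand do not cover every chromosome, so a region named without a gene may have one. Those of em-stage bound regions covered chromosome 1 only, those of the cot stage reached chromosome 16 and those of direct targets chromosome 17. A name from cot-stage positions alone therefore does not mean that the gene lacked an em-stage bound region. Whether a region lies in an exon, intron or untranslated part was not analysed here.

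Genes of fatty acid and triacylglycerol (FAT) biosynthesis are the best known targets of WRINKLED1. Listed sites in them took a small share of the regions in both zones. Of the 588 regions, 5 carried such a site (0.850%; 95% Wilson interval, 0.364% to 1.97%), against 73 of 10141 in the outer zones (0.720%). The study's list held 119 sites in 110 genes, and FAT genes bound at other positions were not counted. The median fold enrichment at the 5 regions was 21.1, compared with 29.7 at the 73 regions. The 5 fell into 3 strong and 2 weaker regions.

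The strongest was at *LTA2* (Glyma.01G081900), whose Arabidopsis counterpart is the acetyltransferase (E2) subunit of the plastid pyruvate dehydrogenase that makes acetyl-CoA for fatty acids. It lay on chromosome 1 at 23797998 to 23798968 and was enriched 23.8-fold in replicate 1 and 39.9-fold in replicate 2. *GAPCP-1* (Glyma.03G092700), a plastid glyceraldehyde-3-phosphate dehydrogenase of glycolysis, had 20.4-fold and 25.4-fold enrichment on chromosome 3 at 27389945 to 27390513. *MOD1* (Glyma.18G156100), named for the Arabidopsis enoyl-ACP reductase that completes each round of acyl chain growth, had 19.5-fold and 22.7-fold enrichment on chromosome 18 at 34158294 to 34159375. It was the strongest region of the middle zone of that chromosome. All 3 exceeded 10-fold in both replicates.

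The other FAT regions were nearer to the median of the chromosome middle. *EMB3147* (Glyma.11G164500), annotated to the start of fatty acid synthesis, had 8.57-fold and 6.14-fold enrichment on chromosome 11 at 15579301 to 15579807. *ENO1* (Glyma.04G144300), the counterpart of the Arabidopsis plastid enolase, had 6.70-fold and 7.33-fold enrichment on chromosome 4 at 26328216 to 26328812. A sixth site, in *KCS11* (Glyma.06G214800), a 3-ketoacyl-CoA synthase of very long chain fatty acids, had only a replicate 1 peak, of 4.65-fold, and is not one of the 588 regions.

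The most strongly bound regions of the chromosome middle were mostly at other genes or at positions without a gene name. Of the 15 regions with the highest mean rank over both replicates, 1 was at a FAT gene (*LTA2*), 6 could be given another gene and 8 none. The first, on chromosome 1 at 32296999 to 32297786, had 43.1-fold and 60.1-fold enrichment and had rank 43 among all 15181 regions. The second, on chromosome 15 at 23181842 to 23182636, had 38.8-fold and 54.2-fold, and a region on chromosome 17 at 20754044 to 20754725 had 43.3-fold and 40.9-fold. No gene was placed at any of these 3.

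Among the named ones, *PHO1;H1* (Glyma.01G091800), of a family of phosphate exporters, had 36.2-fold and 52.1-fold enrichment over a region of 3586 bp on chromosome 1 at 27867414 to 27870999. Glyma.01G089800, annotated as a 2-oxoglutarate and Fe(II)-dependent oxygenase, had 35.0-fold and 53.8-fold on the same chromosome. Glyma.04G139800, annotated as a dirigent-like protein, had 34.5-fold and 40.7-fold and is listed by the study as a direct target of GmWRI1. *CRR22* (Glyma.15G195800), a pentatricopeptide repeat protein that in Arabidopsis takes part in editing of chloroplast RNA, had 30.7-fold and 38.7-fold, and its name rests on a cot-stage position alone. Glyma.01G102300, of unknown function, had 24.6-fold and 48.0-fold. *EXPA8* (Glyma.11G160000), an expansin of the kind that loosens cell walls, had 24.4-fold and 31.8-fold, again named from a cot-stage position alone. Of the 15 regions, 5 lay on chromosome 1.

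**Figure D5:**
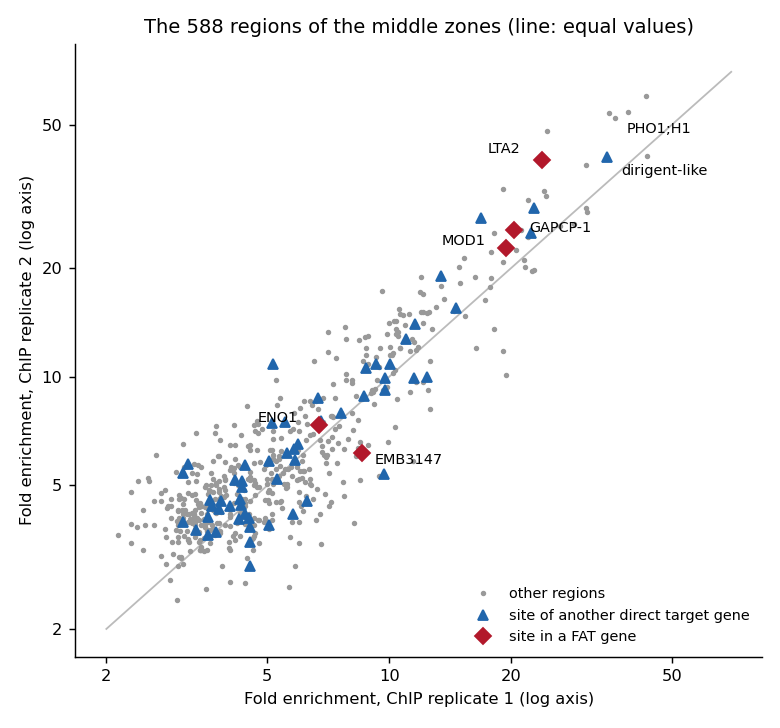
Fold enrichment of the 588 regions of the middle zones in ChIP replicate 1 and replicate 2 (log axes; the line marks equal values), with regions at sites in FAT genes (red diamonds), at sites of other direct target genes (blue triangles) and others (gray). Of the 5 FAT regions, *LTA2*, *GAPCP-1* and *MOD1* lie above 10-fold in both replicates, and *EMB3147* and *ENO1* lie below 9-fold.

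Sites of direct target genes, which the study defined as bound by GmWRI1 and coexpressed with it, could be placed in 60 of the 588 regions. Their positions were at hand only up to chromosome 17, so 60 is a partial count. With FAT sites included, the count was 61. No matching count or median is given for the outer zones, so the values here are not read as particular to the middle. The median fold enrichment of the 60 regions was 5.87, beside 5.13 for all 588. Those above 10-fold in both replicates, besides the genes already named, included *UGT72B1* (Glyma.03G091200), a glycosyltransferase with regions of 22.3-fold and 25.01-fold on chromosome 3 at 27054940 to 27055473 and of 11.01-fold and 12.7-fold at 27056008 to 27057762. *TET7* (Glyma.04G147100), a tetraspanin of membranes, had 16.9-fold and 27.5-fold. A region at *PTEN1* (Glyma.08G241500) and Glyma.08G241600, the former annotated as a phosphatase, had 14.7-fold and 15.5-fold. This region carried a direct target site and a cot-stage position, and which gene each belongs to is not told apart here. *PHOT2* (Glyma.16G096600), the blue-light receptor phototropin, had 11.6-fold and 13.96-fold. The others were Glyma.09G118900 (22.8-fold and 29.4-fold), Glyma.09G120900 (13.4-fold and 18.98-fold), Glyma.05G092800 (12.4-fold and 10.0-fold) and Glyma.14G125500 (10.0-fold and 10.8-fold), for which no description was at hand.

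On several chromosomes the strongest region of the middle was at a gene of another kind, and the 4 given next were named from cot-stage positions alone. On chromosome 10 it lay at Glyma.10G107000 and *GPDHC1* (Glyma.10G107100), annotated to the 6-phosphogluconate dehydrogenase family and named for an Arabidopsis NAD-dependent glycerol-3-phosphate dehydrogenase, with 22.5-fold and 19.6-fold enrichment. On chromosome 2 it lay at Glyma.02G167800, annotated as a methyltransferase, with 20.5-fold and 22.4-fold. On chromosome 14 it lay at Glyma.14G135900, with a prefoldin domain, at 21.1-fold and 25.6-fold. On chromosome 5 it lay at Glyma.05G093000, of a phospholipase C-like family, at 15.4-fold and 14.8-fold. The lowest such maximum was on chromosome 6, at 10.3-fold and 14.3-fold, where no gene was placed.

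Among the 5 widest regions of the chromosome middle, only *PHO1;H1* was also among the 15 strongest. The widest spanned 4711 bp on chromosome 5, from 25032011 to 25036721, with 12.1-fold and 9.66-fold enrichment and no gene placed. The second spanned 3978 bp on chromosome 16, from 21684355 to 21688332, at Glyma.16G106900 (a glycosyltransferase) and Glyma.16G107000 (a transporter of the major facilitator family), both named from cot-stage positions alone, with 12.4-fold and 15.02-fold. *PHO1;H1*, given above, came next. A region of 2924 bp on chromosome 17 had 14.5-fold and 15.2-fold, and one of 2765 bp on chromosome 8 had 6.01-fold and 5.49-fold. Each of these merged regions held between 2 and 4 peaks of the lists.

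Regions just inside and just outside the bounds of the middle zone were similar in number. Within 1% of the span inside the borders lay 74 regions with a median of 5.55-fold, and within 1% outside lay 79 with a median of 4.94-fold. At the border at 40% the inner and outer medians were 4.89 (43 regions) and 4.98 (44 regions). At 60% they were 6.48 (31 regions) and 4.78 (35 regions). These medians rest on few regions, and no step in strength at a border is read from them.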

How the data were processed

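ChIP-Seq peak lists of 2 ChIP libraries were used. The 2 inputs had no peak list and entered through peak calling. Samples were grouped by their labels, which call the replicates biological. The submitters' processing notes name Bowtie 0.12.7 for alignment and MACS2 for peak calling (version not given in the sources used here), whereas the study's methods name MACS3. The deposited peak names carry a q threshold of 0.01. The build Wm82.a2.v1 was taken from the annotation note given with the bound genes. Mapping options and duplicate handling were likewise not given, so how reads from repeats were treated is unknown. The deposited fold enrichment is the ratio that the authors' peak caller gave for ChIP reads over background at a summit, and the deposited −log10 p and −log10 q belong to the same summit. The deposited score, a display value, was not used. Summit reads and background were solved from fold enrichment and −log10 p with a pseudocount of 1, within 0.001, for 100% of peaks. Library totals were not used here.

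Peaks were merged, placed and compared in Python 3.11.15 with pandas 2.3.3, and the steps were tested on simulated data. Wilson and Newcombe intervals are at 95% and cover counting error only. No p was computed over regions or chromosomes. The members and lists were chosen with earlier results of these data known. Named were FAT sites, the 15 regions of highest mean rank, the strongest of each chromosome, the 5 widest, and direct targets with at least 10-fold enrichment in both replicates. Sequence at the summits was not analysed here. Alternatives were a −log10 q of at least 10, 50% reciprocal overlap, summits within 100 bp, other bounds, chromosome 13 included, medians over chromosomes, 1 replicate alone, other measures of strength and width, each chromosome left out and the sparsest part of each chromosome.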

Additional observations from a re-analysis of the deposited data

Results flagged for a closer look

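Chromosome 13 was left out of the comparison, and its middle zone held 251 regions with a peak of each replicate, or 27.7 per Mb, more than the 22.1 per Mb of its outer zones (400 regions) and more than the 6.18 per Mb of the densest other middle zone. The regions there had a median fold enrichment of 4.73 in replicate 1 and 5.24 in replicate 2, a median width of 539 bp and a share with both replicates of 58.4% (95% Wilson interval, 53.7% to 62.9%). The cause was not tested.

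Unplaced scaffolds, which have no position along a chromosome, held 79 regions with a peak of each replicate out of 130 in either list (60.8%; 95% Wilson interval, 52.2% to 68.7%). Their median fold enrichment was 4.65 and the highest was 18.6.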

How the results depend on the processing

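Of 91 alternative values, 73 moved by no more than the spread between replicates, the counting interval or 1.5 times a count, 17 moved by more and 1, the width ratio below, crossed equality where both replicates had lain on one side. Values whose replicates or interval touched or spanned equality crossed it more often, in 5 of 15 alternatives for strength (0.980 to 0.993), 2 of 12 for sharing (0.198 and 0.7996 percentage points), 4 of 12 for summit reads and 1 of 12 for strong regions (-0.356 points), so no direction is given for these. Density and background crossed it in none of their 9 and 12. For density, the setting with the sparsest 20% of each chromosome was picked for few regions and could not have crossed it. The 588 regions fell to 314 with a −log10 q of at least 10. The middle-to-outer density ratio of 0.116 became 0.0974 for 45% to 55% of the span, 0.162 for 30% to 70%, 0.175 against all regions outside the middle zone, 0.159 with chromosome 13 included, 0.111 as the median over chromosomes, 0.111 to 0.121 with each chromosome left out and 0.0870 for the sparsest 20% of each chromosome, the last 2 settings added after seeing the data. The width ratio of 0.977 became 1.01 with summits within 100 bp, a reversed direction, 0.908 with a −log10 q of at least 10 and 0.947 as the mean over strength classes. The summit reads ratio of 1.01 became 0.988 with 50% reciprocal overlap, 0.973 for 45% to 55% and 0.986 for 30% to 70%. With 1 replicate left out, strength ranged from 0.980 to 1.03, summit reads from 0.966 to 1.00, background from 0.951 to 0.970, width from 0.960 to 0.992 and the difference in strong regions from 2.09 to 2.22 percentage points. The cause was not tested. The differences in sharing and in strong regions stayed inside their counting intervals under all alternatives run. The alternative that measures the span from position 1 to the chromosome length and the analysis of summit sequence were not run. No paired analysis was possible because the peak lists of the ChIP libraries already contain the matching inputs and no other group had values.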
